A study of Mus musculus with 20 samples.

Results

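Polycomb repressive complex 1 (PRC1) genes were followed across 6 kinds of mouse cells. The members were all probe sets carrying 1 of 10 gene symbols (Bmi1, Pcgf2, Pcgf5, Pcgf6, Ring1, Rnf2, Cbx2, Cbx7, Phc1 and Phc2). These were 24 of the 34945 probe sets with 1 gene symbol, and all 10 genes were among the 18193 genes measured. RNA from 20 cell samples was hybridised to Affymetrix arrays, and every level below is a log2 intensity of a probe set. Unless another is named, a gene is given by its probe set of highest mean over all samples.

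Germline stem cells (GSC, 3 samples) were lines set up from testes of OG2 mice, which carry an Oct4-GFP transgene (B6;CBA-Tg[Pou5f1-EGFP]2Mnn/J), in which GFP is driven by sequence of the pluripotency gene Pou5f1. Germline pluripotent stem cells (gPS, 5 samples) came from such GSC: about 1000 were plated per well on mouse embryonic fibroblast feeders, colonies bright in GFP were taken after 3 to 4 weeks, and these were expanded as embryonic stem cells are. Embryonic stem cells (ESC, 3 samples) were of 1 line, RW4, kept on fibroblast feeders with leukemia inhibitory factor (LIF). ESC_like (3 samples) were cells from testis of postnatal day 0 to 2, supplied by another laboratory and kept on feeders with LIF, and their strain is not given in the labels. Neural stem cells (NSC, 3 samples) were made from Olig2-GFP ESC, and mouse embryonic fibroblasts (MEF, 3 samples) were from C3H embryos at E12.5. Genetic background therefore differs between several of the groups and cannot be told apart from cell type there. GSC and gPS share the OG2 strain. The labels do not name separate cultures or clones, so a p-value here speaks only of the spread among the samples measured, which may be technical.

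PRC1 places ubiquitin on histone H2A and compacts chromatin, and it keeps developmental genes silent in stem cells. Every PRC1 holds Ring1 or Rnf2, the catalytic E3 ligases, joined to 1 subunit of the Pcgf family. In canonical PRC1 that subunit is Bmi1 or Pcgf2, and the complex also holds a chromobox protein such as Cbx2 or Cbx7, which binds trimethylated lysine 27 of histone H3, and a polyhomeotic protein such as Phc1 or Phc2. Variant PRC1 with Pcgf5 or Pcgf6 lacks these, and the Pcgf6 complex, PRC1.6, contains Mga and Max, which bind the E-box CACGTG, and silences germ cell genes in embryonic stem cells. Bmi1 is known for repressing the Cdkn2a locus and for maintaining adult stem cells.

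Since Mga and Max bind that E-box, the promoters of the members were searched for it, in the 250 bases before each annotated start in RefSeq (build GRCm38.p6). Of the 10 members, 9 had such a window, and 3 of the 9 held CACGTG. Of the 27025 genes with a window, 6.86% held it in at least 1, and of the 32851 single windows 6.02% did, since some genes have several. The E-box reads the same on both strands. The 3 members with a match were Bmi1, Pcgf2 and Phc2, and their windows are shown 5′ to 3′ on the gene's strand, with the E-box in capitals. All 3 were called between GSC and gPS (adjusted p under 0.05 and at least 2-fold), as were 7 of the 10 members and 20.0% of all genes. Pcgf5, Cbx7 and Phc1 were called too, and their windows held no E-box. The Bmi1 window is chr2:18676768-18677017 on the plus strand, with the E-box starting 215 bases before the start. That of Pcgf2 is chr11:97699649-97699898 on the minus strand, with the E-box at 137 bases. That of Phc2 is chr4:128654452-128654701 on the plus strand, with the E-box at 57 bases, and it is the first of 3 windows of this gene.
Bmi1: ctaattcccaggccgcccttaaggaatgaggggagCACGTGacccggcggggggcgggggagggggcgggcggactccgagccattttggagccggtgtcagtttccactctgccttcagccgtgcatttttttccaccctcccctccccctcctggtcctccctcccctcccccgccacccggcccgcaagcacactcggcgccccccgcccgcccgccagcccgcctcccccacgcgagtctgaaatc
Pcgf2: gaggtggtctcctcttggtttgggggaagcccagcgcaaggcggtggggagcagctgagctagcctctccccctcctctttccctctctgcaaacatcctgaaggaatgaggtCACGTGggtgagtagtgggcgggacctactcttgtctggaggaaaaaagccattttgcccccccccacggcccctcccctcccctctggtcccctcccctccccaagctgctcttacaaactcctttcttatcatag
Phc2: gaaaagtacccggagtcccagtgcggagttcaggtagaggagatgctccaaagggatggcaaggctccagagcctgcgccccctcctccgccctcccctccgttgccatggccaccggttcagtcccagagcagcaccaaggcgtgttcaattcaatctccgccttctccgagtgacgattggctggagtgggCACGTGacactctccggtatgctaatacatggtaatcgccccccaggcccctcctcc
Bmi1 and Phc2 fell in gPS cells and Pcgf2 rose, so members with the same E-box moved in opposite directions. The Bmi1 window held 21 CpG and was 70.4% G and C, and the Pcgf2 window held 5 CpG at 59.6%. The median over all windows was 6 CpG and 52.4%. No binding was measured, and a match is only a match of letters.

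The deposited levels ran from 2.04 to 14.71 over the arrays, with array medians from 4.95 to 5.04. One library stood apart in RNA quality: the Actb probe sets at the 3′ and 5′ ends differed by 1.25 in GSC replicate 1, against 0.12 to 0.57 in the other 19 samples. The gPS samples were the most uneven group, and gPS replicate 1 had the lowest mean correlation with the rest of its group, 0.979. Pluripotency markers (Pou5f1, Nanog, Zfp42, Esrrb, Tdgf1, Dppa5a) had group means above 7 for 6 of 6 genes in gPS, ESC and ESC_like, and germline markers for 6 of 6 in GSC. Of 5 measured neural markers, 4 were above 7 in NSC, where Sox1 lay below the median of all values. Of 8 fibroblast markers, 7 were above 7 in MEF, 6 in ESC_like, 5 in GSC, 5 in gPS, 2 in NSC and 0 in ESC. The log2 of their summed level was 14.40 to 14.50 in MEF, 12.03 to 12.37 in ESC_like, 9.94 to 11.40 in gPS, 10.42 to 10.76 in GSC, 9.74 to 10.29 in NSC and 7.62 to 7.96 in ESC. In ESC, Col1a1, Col3a1, Lum, Postn, Thy1 and Fbln2 were below the median of all values, although the labels place these cells on feeders. The log2 sum of 6 macrophage markers was 11.10 to 11.21 in GSC and 7.91 to 9.45 in gPS. That difference came mainly from Lyz2, at 10.96 in GSC and 6.35 in gPS, the only 1 of the 6 above 7 in GSC. Cd68 was at 6.77 in GSC and 6.58 in gPS, and Csf1r at 6.34 and 5.86. Ptprc was below the median in every group. The part of fibroblast or macrophage RNA in the differences between GSC and gPS was not tested. In such bulk samples, fewer cells of a type and less RNA per cell cannot be told apart.

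Of the 10 members, 7 spanned at least 2 log2 units between their lowest and highest group mean, as did 23.3% of all genes. The 3 that did not were Pcgf6, just short of 2, and the catalytic pair Ring1 and Rnf2.

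**Figure D1:**
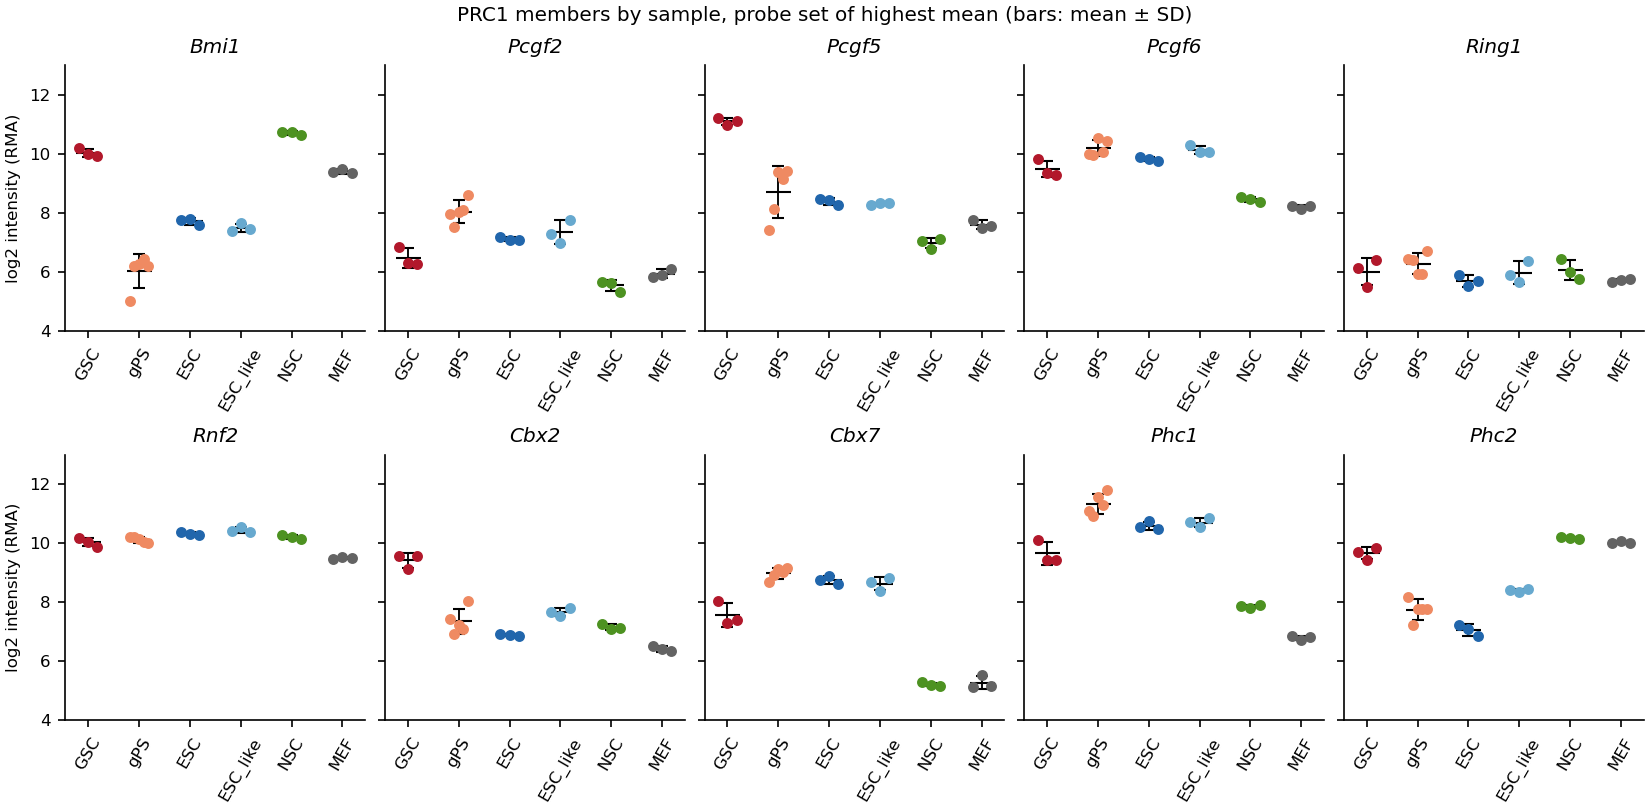
Log2 intensity (vertical axis) of each of the 10 members in all 20 samples, by group, 1 point per sample, with the group mean and SD as bars (n = 3, and 5 for gPS). Bmi1 was lowest in gPS (5.04 to 6.45) and highest in NSC (10.63 to 10.74), whereas the group means of Ring1 lay between 5.70 and 6.29.

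Among the Pcgf subunits, Bmi1 fell the most between GSC and gPS. Its levels were 10.19, 10.00 and 9.91 in GSC and 5.04, 6.21, 6.27, 6.45 and 6.22 in gPS. The groups were far apart, and gPS replicate 1 lay below the other 4. The difference was -4.00 ± 0.21 (SE), a 16.0-fold fall, with a 95% interval of -4.43 to -3.56 and an adjusted p of 1.173e-12 (limma, Benjamini-Hochberg over all genes). Without gPS replicate 1 it was -3.75.

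Bmi1 was also lower in gPS than in any other group measured. ESC stood at 7.76, 7.80 and 7.58 and ESC_like at 7.39, 7.66 and 7.45, so both pluripotent groups lay above all 5 gPS samples. The difference of gPS from ESC was -1.68 ± 0.21, 3.20-fold lower, with an adjusted p of 4.415e-06, and -1.43 without gPS replicate 1. ESC_like exceeded gPS by 1.46, with an adjusted p of 2.217e-05. MEF held more Bmi1, 9.41 ± 0.08 (SD, n = 3), than gPS or ESC did, and the fibroblast markers were higher in gPS than in ESC. Their part in the Bmi1 difference was not tested. NSC were highest at 10.70 ± 0.06 (SD, n = 3), followed by GSC, at 10.03 ± 0.14 (SD, n = 3), and MEF. ESC and ESC_like, neighbours in this order, were not separated by the test (adjusted p 0.5097, with 0.05 as the threshold here and below). A second Bmi1 probe set, 1448733_at, moved alike, by -3.58 from GSC to gPS and by -1.69 between gPS and ESC, both called.

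Pcgf2, also known as Mel18 and the closest paralog of Bmi1, took the opposite course. GSC had 6.86, 6.32 and 6.26 and gPS had 7.95, 7.53, 8.04, 8.10 and 8.60, with no overlap. Pcgf2 rose by 1.56 ± 0.20, or 2.96-fold (adjusted p 7.686e-07), and by 1.75 without GSC replicate 1. Its level was highest in gPS, and ESC_like, at 7.28, 6.98 and 7.77, came next, its highest sample overlapping the gPS range. ESC stood at 7.11 ± 0.06 (SD, n = 3) and was not separated from ESC_like. MEF (5.95 ± 0.14) and NSC (5.55 ± 0.19, SD, n = 3 each) were lowest and were not separated from each other. Over ESC, the gPS level was higher by 0.93 (95% interval 0.52 to 1.34, adjusted p 1.311e-03), just under the 2-fold minimum, and by 1.06, past it, without gPS replicate 2. The other Pcgf2 probe set, 1456330_at, was dim and differed by 0.58 between gPS and GSC (limma adjusted p 9.99e-04). It was not called, being short of 2-fold.

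Pcgf5, which forms the variant complex PRC1.5, was highest in GSC. GSC had 11.22, 10.97 and 11.12, while gPS had 7.42, 8.14, 9.39, 9.15 and 9.43. Every GSC sample was above every other sample, and gPS spread over 2 levels, with replicates 1 and 2 below the other 3. Pcgf5 fell by 2.40 ± 0.31 on the log2 scale, or 5.27-fold (adjusted p 1.073e-06), and the difference was -1.78 when gPS replicates 1 and 2 were both left out. ESC (8.38 ± 0.11), ESC_like (8.32 ± 0.04) and MEF (7.61 ± 0.15, SD, n = 3 each) followed gPS, NSC were at 6.98 ± 0.18 (SD, n = 3), and no neighbours from gPS down to NSC were separated. The ends of that series did differ, gPS from NSC by 1.73, which was called (limma adjusted p 6.155e-05). The gPS and ESC levels differed by 0.32, with an interval of -0.32 to 0.97, and by 0.94 without gPS replicates 1 and 2. A second Pcgf5 probe set, 1434666_at, changed by -1.79 from GSC to gPS and was called, and another, 1453636_at, was near the floor of the array. On 1434666_at gPS and NSC stood at 5.97 and 6.01.

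Pcgf6, the subunit that defines PRC1.6, depended on the probe set. The probe set of highest mean, 1424081_at, read 9.81, 9.36 and 9.30 in GSC and 10.00, 9.95, 10.55, 10.05 and 10.45 in gPS. All gPS samples were above all GSC samples, but the difference, 0.71 ± 0.14 or 1.64-fold (adjusted p 1.907e-04), was under the 2-fold minimum. Probe set 1454120_a_at gave 0.88. The third, 1432108_at, went the other way, with GSC at 7.40 ± 0.38 (SD, n = 3) and gPS at 6.00 ± 0.32 (SD, n = 5), a change of -1.40 ± 0.17 that was called (adjusted p 5.683e-07). Over the 20 samples the first and second correlated at r = 0.968, and the third correlated with them at 0.452 and 0.399, given as a description. The probe table assigns 1432108_at and 1454120_a_at to the same source transcript, and which transcripts each detects was not tested.

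Across groups, 1424081_at separated the pluripotent and germline cells from the somatic ones. Its means in gPS (10.20), ESC_like (10.14), ESC (9.83) and GSC (9.49) formed a series in which no neighbours were separated. NSC followed 1.03 lower (adjusted p 7.874e-06), at 8.46 ± 0.08, and MEF were at 8.20 ± 0.07 (SD, n = 3 each). On 1432108_at NSC, at 6.03, stood level with gPS, at 6.00, and MEF were lowest, at 4.90.

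**Figure D2:**
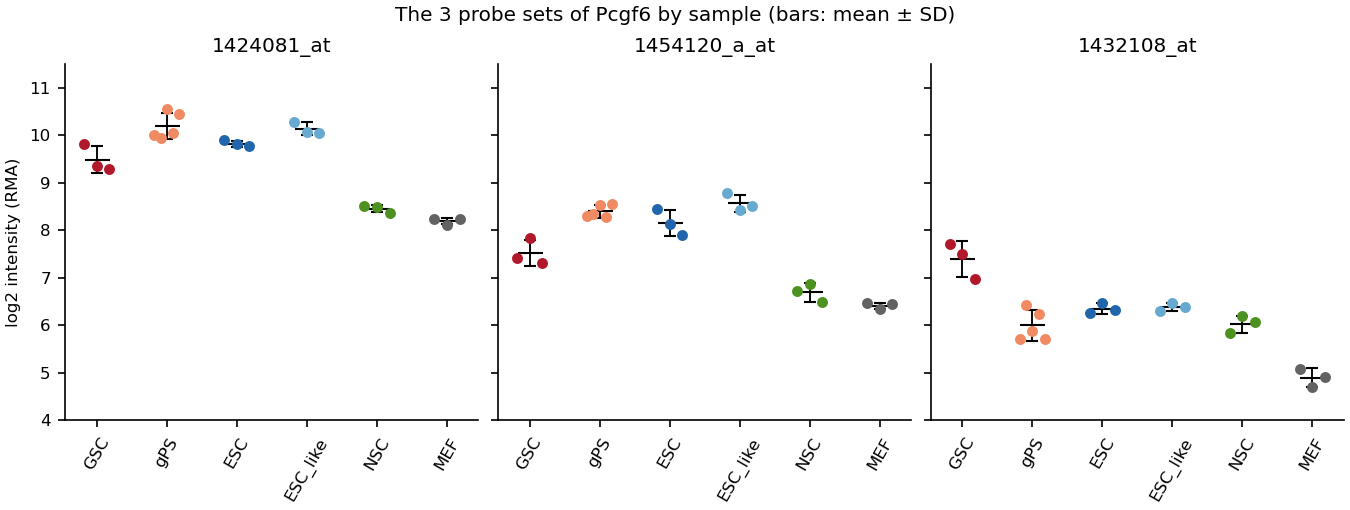
Log2 intensity (vertical axis) of the 3 Pcgf6 probe sets in all 20 samples, by group, with group mean and SD as bars. GSC were below gPS on 1424081_at and 1454120_a_at and above gPS on 1432108_at.

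The catalytic subunits had the smallest spans between group means, 0.95 for Rnf2 and 0.59 for Ring1. Rnf2 (RING1B), the main H2A ubiquitin ligase of embryonic stem cells, read 10.16, 10.04 and 9.88 in GSC and 10.21, 10.21, 10.13, 10.04 and 10.00 in gPS. These ranges overlapped, and the difference was 0.09 ± 0.09, with an interval of -0.10 to 0.28 (adjusted p 0.4254). No neighbours were separated from ESC_like (10.44 ± 0.10, SD, n = 3) down to GSC, and MEF then lay 0.54 lower, at 9.49 ± 0.03 (SD, n = 3, adjusted p 9.293e-05). The ends of that series did differ, GSC from ESC_like by -0.41 (limma adjusted p 1.516e-03), short of 2-fold. Against ESC, Rnf2 in MEF was lower by 0.84 (adjusted p 4.001e-07), short of 2-fold. Probe set 1451519_at followed the first (r = 0.915 over the 20 samples), and the other 3 of Rnf2 were dimmer and followed it poorly. One of these, 1448041_at, was higher in gPS than in GSC by 0.98 (limma adjusted p 3.995e-04), with no overlap, and missed only the 2-fold minimum. By the mean of all its probe sets, Rnf2 was higher in gPS by 0.33 (limma adjusted p 0.01496), short of 2-fold.

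Ring1 (RING1A), the other ligase, had 1 probe set. It read 6.14, 5.51 and 6.40 in GSC and 6.44, 6.41, 5.94, 5.92 and 6.73 in gPS. The gPS level differed from GSC by 0.27, with an interval of -0.18 to 0.71 (adjusted p 0.319). ESC were at 5.70 ± 0.19, MEF at 5.73 ± 0.06, ESC_like at 5.98 ± 0.38 and NSC at 6.07 ± 0.34 (SD, n = 3 each), and no neighbours in the order were separated. All gPS samples lay above all ESC and MEF samples, by 0.59 (adjusted p 0.0477) and 0.56 (adjusted p 0.03146) in the means, short of 2-fold. The difference from ESC only just passed. Its limma adjusted p was 0.06594 with arrays centred, 0.07172 with a replicate block and 0.07452 without gPS replicate 1. Over the 6 groups together its adjusted p was 0.1183 in limma's F test, whereas each of the other 9 members was under 0.05, from 3.256e-15 for Cbx7 to 4.323e-07 for Rnf2.

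The chromobox readers moved in opposite directions between GSC and gPS. Cbx2 read 9.55, 9.13 and 9.57 in GSC and 7.45, 6.94, 7.23, 7.09 and 8.05 in gPS. GSC stood clear of every other sample in the series. Cbx2 fell by 2.07 ± 0.17 on the log2 scale, or 4.19-fold (adjusted p 2.32e-09). ESC_like came second at 7.68 ± 0.13 (SD, n = 3), 1.74 below GSC, and from there through gPS, NSC (7.16 ± 0.09), ESC (6.89 ± 0.04) and MEF (6.42 ± 0.09, SD, n = 3 each) no neighbours were separated. The ends of that series did differ, ESC_like from MEF by 1.26, which was called (limma adjusted p 1.622e-05). A dimmer Cbx2 probe set, 1422059_at, changed by -0.91 (limma adjusted p 3.759e-03) and was not called, being short of 2-fold.

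Cbx7, the chromobox protein that predominates in embryonic stem cells, read 8.04, 7.29 and 7.41 in GSC and 8.67, 8.92, 9.12, 9.01 and 9.15 in gPS. It rose by 1.40 ± 0.15, or 2.63-fold (adjusted p 1.359e-07), and by 1.63 without GSC replicate 1. When a gene was given by the mean of its probe sets, which for Cbx7 takes in the dim 1449713_at, the difference was 0.80 and not called. Probe set 1420039_s_at gave 1.11 and was called. The levels of gPS, ESC (8.76 ± 0.14) and ESC_like (8.63 ± 0.23, SD, n = 3 each) were not separated between neighbours, GSC lay 1.05 below ESC_like, and MEF and NSC lay far lower, at 5.28 ± 0.21 and 5.22 ± 0.06 (SD, n = 3 each). Against ESC, Cbx7 was 11.6-fold lower in NSC (-3.54, adjusted p 3.489e-13) and 11.2-fold lower in MEF (-3.48). In NSC and MEF it lay near the median of all values, 4.98, so these sizes are best read as at least so large.

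The polyhomeotic subunits also moved in opposite directions. Phc1, the form abundant in embryonic stem cells, read 10.10, 9.43 and 9.43 in GSC and 11.07, 10.93, 11.55, 11.28 and 11.78 in gPS. It rose by 1.67 ± 0.17, or 3.19-fold (adjusted p 3.526e-08), and by 1.90 without GSC replicate 1, the sample nearest to gPS. Phc1 was highest in gPS, 0.63 above ESC_like (adjusted p 7.729e-03). ESC_like (10.69 ± 0.15) and ESC (10.59 ± 0.13) were not separated, and NSC and MEF were at 7.86 ± 0.04 and 6.80 ± 0.07 (SD, n = 3 each). In MEF, Phc1 was 13.8-fold lower than in ESC (-3.79, adjusted p 4.324e-13).

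Phc2, its somatic paralog, read 9.71, 9.43 and 9.82 in GSC and 8.19, 7.23, 7.78, 7.79 and 7.79 in gPS. It fell by 1.90 ± 0.15 on the log2 scale, or 3.73-fold (adjusted p 7.918e-10). NSC (10.18 ± 0.04), MEF (10.03 ± 0.04) and GSC were highest, and no neighbours among them were separated. GSC and NSC, the ends of that order, differed by -0.52 (limma adjusted p 0.01171), short of 2-fold. ESC_like, at 8.43, 8.35 and 8.43, lay above every gPS and every ESC sample, the latter at 7.24, 7.10 and 6.84. On a second probe set, 1416048_at, ESC_like (7.64 to 7.95) lay within the gPS range (7.10 to 8.19), with a difference of gPS from ESC_like of -0.10 (adjusted p 0.7241), so their separation rests on 1 of 2 probe sets. The ESC_like level exceeded ESC by 1.34 ± 0.17, or 2.53-fold (adjusted p 3.215e-06), and by 1.20 on 1416048_at, also called. Fibroblast markers moved with this result, since MEF held the higher Phc2 level and the log2 sum of the markers was 12.03 to 12.37 in ESC_like against 7.62 to 7.96 in ESC. The part of fibroblast RNA in the Phc2 difference was not tested. The gPS level exceeded ESC by 0.69 (adjusted p 1.607e-03), with overlapping samples, and by 1.10 on 1416048_at, which was called (adjusted p 2.779e-04).

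To describe the exchange of paralogs, the log2 difference of 2 paralogs was taken in each sample and set relative to the GSC mean. Only its change between groups can be read, since probe sets of different genes bind with different strength. No test was made, because these differences restate the levels above. Bmi1 over Pcgf2 was -6.47 to -4.87 in gPS (mean -5.56 ± 0.64, SD, n = 5), with ESC at -2.95, ESC_like at -3.40, MEF at -0.09 and all NSC samples above 0. The gPS samples thus stood furthest toward Pcgf2, and ESC and ESC_like lay between them and GSC. Bmi1 over Pcgf6 was -4.71 ± 0.54 (SD, n = 5) in gPS, -2.66 in ESC and -3.19 in ESC_like.

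Cbx2 over Cbx7 was -3.47 ± 0.43 (SD, n = 5) in gPS, -3.71 in ESC and -2.80 in ESC_like, but 0.10 in NSC and -0.70 in MEF. By the mean of all probe sets the gPS value was -2.29. Phc1 over Phc2 was 3.57 ± 0.42 (SD, n = 5) in gPS and 3.53 ± 0.20 (SD, n = 3) in ESC, 2.29 in ESC_like, and -2.31 and -3.23 in NSC and MEF. For both pairs the gPS samples overlapped the ESC samples, and ESC_like lay closer to GSC than ESC did. Ring1 over Rnf2 was 0.18 ± 0.36 (SD, n = 5) in gPS, overlapping GSC, and its sign turned to -0.06 by the mean of all probe sets and to -0.08 without GSC replicate 2. Over every pairing of probe sets, the gPS value was below that of GSC in 4 of 4 for Bmi1 over Pcgf2, in 6 of 6 for Bmi1 over Pcgf6 and in 6 of 6 for Cbx2 over Cbx7, and above it in 2 of 2 for Phc1 over Phc2. The lowest and highest were -3.47 and -0.80 for Cbx2 over Cbx7 and 3.02 and 3.57 for Phc1 over Phc2. Such pairings reuse the same probe sets and restate their changes, so they are not separate evidence. Pcgf6 changed by -1.40 on 1432108_at, so in its pairings with Bmi1 both genes fell.

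**Figure D3:**
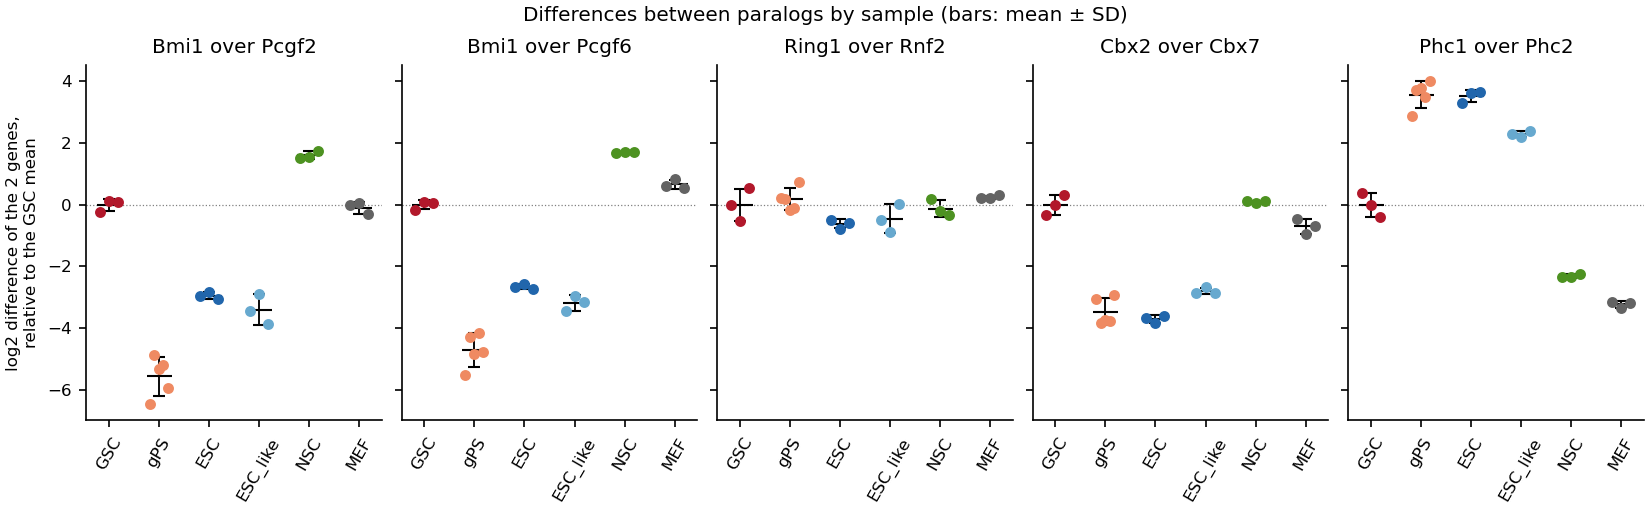
Log2 difference between the paralogs of 5 pairs in each of the 20 samples, relative to the mean of GSC (vertical axis, GSC mean at 0), with group mean and SD as bars. For Bmi1 over Pcgf2 gPS lay at -5.56 and ESC at -2.95, and for Phc1 over Phc2 they lay at 3.57 and 3.53.

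Counted together, 7 of 10 members changed between GSC and gPS: Pcgf2, Cbx7 and Phc1 rose, and Bmi1, Pcgf5, Cbx2 and Phc2 fell. Of all genes, 20.0% were called in this comparison (adjusted p under 0.05 and at least 2-fold). The median size of the difference was 1.62 over the members and 0.34 over all genes, and the median signed differences were 0.18 and 0.02. By probe set, 4 of 24 were higher and 8 lower, against 15.2% of all probe sets called in either direction.

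In gPS against ESC, 1 of 10 members was called, Bmi1, which was lower, and 4.49% of all genes were called. With no minimum fold 5 members passed, Pcgf2, Phc1, Phc2 and Ring1 being the others, all higher in gPS, and 25.0% of all genes did. Ring1 passed only narrowly and not under several alternatives, as given above. GSC against ESC had 4 members higher (Bmi1, Pcgf5, Cbx2, Phc2) and Cbx7 lower, against 23.3% of all genes called. Phc1 was lower there by 0.94 (adjusted p 2.617e-04) and was called at -1.16 without GSC replicate 1. These comparisons share the ESC samples, and the first shares the gPS samples with that against GSC, so their values stand side by side and are not separate evidence.

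In ESC_like against ESC, Phc2 alone of the 10 was called, beside 7.21% of all genes. Bmi1 differed there by -0.22, which was not called. Cbx2 was higher by 0.78 (adjusted p 4.662e-03), short of 2-fold. In NSC against ESC, Bmi1 (2.99, adjusted p 6.346e-10) and Phc2 (3.12) were higher and 5 members lower, namely Pcgf2, Pcgf5, Pcgf6, Cbx7 and Phc1, against 21.4% of all genes called. In MEF against ESC, Bmi1 (1.70) and Phc2 (2.97) were higher and Pcgf2, Pcgf6, Cbx7 and Phc1 lower, against 23.4%. By the mean of probe sets, the Pcgf5 difference of NSC was -0.54 and the Pcgf2 difference of MEF was -0.77, and neither was then called.

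**Figure D4:**
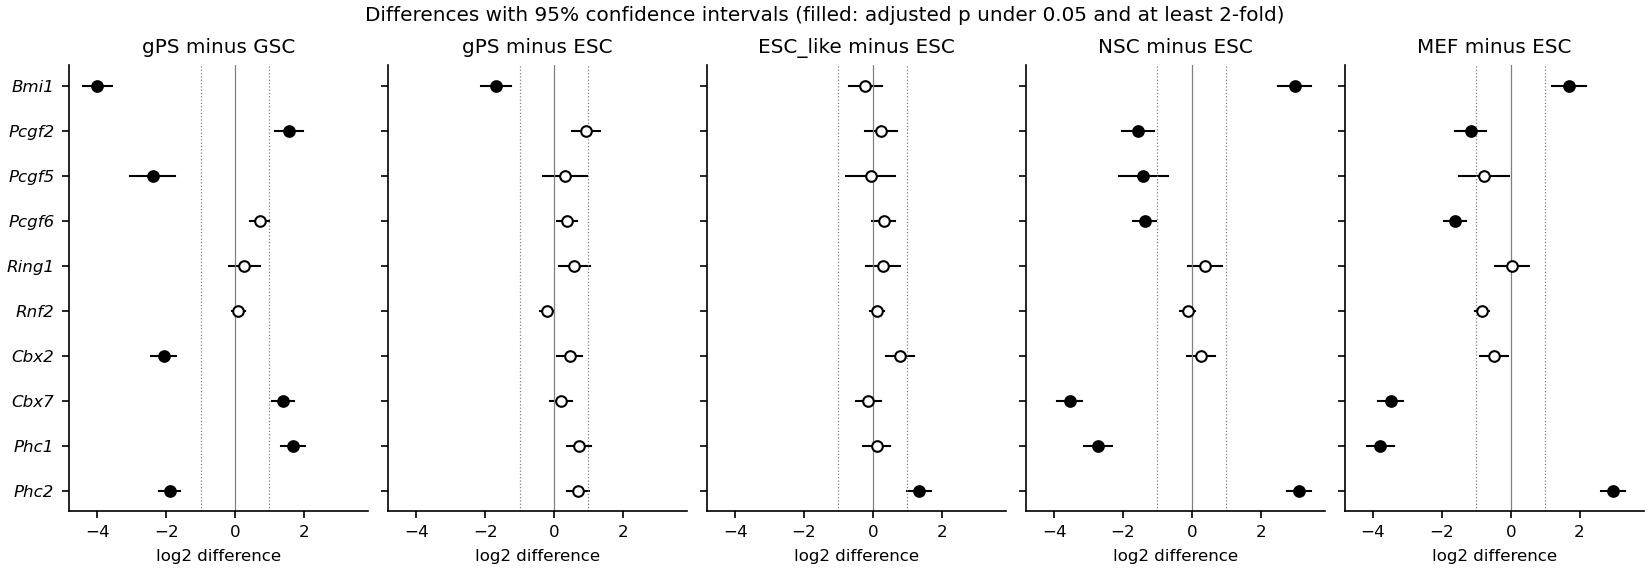
Log2 difference (horizontal axis) of each member in 5 comparisons, with 95% confidence intervals from limma, where filled points were called and dotted lines mark 2-fold. In gPS minus ESC only Bmi1 is filled, at -1.68, and in gPS minus GSC 7 of 10 are filled.

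GSC and the somatic cells each held more Bmi1 and Phc2 than ESC did but differed in other members. Against NSC, 5 members were higher in GSC (Pcgf5, Pcgf6, Cbx2, Cbx7 and Phc1), where 26.8% of all genes were called. Against MEF the called members were the same 5, where 28.4% of all genes were called. Between NSC and MEF, Bmi1 and Phc1 were higher in NSC, at a background of 17.0%.

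Members grouped by how they ran over the 20 samples, which share the 6 groups, so that these correlations describe group patterns. Pcgf6 and Phc1 had r = 0.984, Cbx7 and Phc1 0.974, Pcgf6 and Cbx7 0.973, and Pcgf2 and Cbx7 0.910. Pcgf5 and Cbx2, the members high in GSC, had r = 0.834, and Bmi1 and Phc2 had 0.826. Bmi1 and Pcgf2 ran against each other (-0.912), as did Cbx7 and Phc2 (-0.876) and Phc1 and Phc2 (-0.832).

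Of the 4243 genes spanning at least 2 log2 units between group means, those most like Bmi1 over the 20 samples were Nbea (r = 0.977), Rab11fip2 (0.969) and Pag1 (0.963). Those most like Pcgf2 were Lsr (0.969), Utf1 (0.956), a chromatin factor of undifferentiated embryonic cells, and Pmm1 (0.956). Most like Pcgf5 were Fam241b (0.985), Cep85 (0.977) and Phf13 (0.977), and most like Cbx2 were Klhdc3 (0.964), Lrsam1 (0.961) and Rnf216 (0.957). Cbx7 ran closest to Slc2a3 (0.994), a glucose transporter, Pou5f1 (0.991), the core pluripotency factor, and Sirt1 (0.990), a deacetylase. Phc1 ran closest to Msh6 (0.984), a mismatch repair gene, Zfp473 (0.981) and Dnmt3b (0.979), a DNA methyltransferase. Phc2 ran closest to Cacfd1 (0.986), Tmem129 (0.984) and Clptm1l (0.982).

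Other PRC1 genes were mostly lower in gPS than in GSC. Of 13 measured genes, 6 were called lower and none higher (2 were higher at an unadjusted p under 0.05), beside 10.9% and 9.10% of all genes, and the median difference was -0.88. Scml2, a Polycomb protein of the male germline, fell by 6.76 ± 0.17 on the log2 scale, from 11.24 to 4.48. Cbx8, a chromobox paralog of Cbx2 and Cbx7, fell by 2.52 ± 0.16, from 7.65 to 5.13, and Yaf2, a subunit of variant PRC1, fell by 1.16 ± 0.16. Bcor, a subunit of the Pcgf1 complex, differed by 0.25 ± 0.19. In gPS against ESC 0 of the 13 were called by limma, beside 4.49% of all genes, and 7 had an unadjusted p under 0.05. In GSC against ESC 6 were higher, beside 13.1% of all genes, led by Scml2 (7.11), Cbx8 (2.91) and Yaf2 (1.86). Yaf2 was also higher than in ESC in NSC (3.31) and MEF (2.74), and so was Phc3, a further polyhomeotic gene, with a difference of 1.65 in NSC, while Kdm2b, which recruits the Pcgf1 complex to CpG islands, was lower in MEF (-1.92).

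The partners of Pcgf6 in PRC1.6 moved both ways. Of 11, 3 rose and 2 fell between GSC and gPS, beside 9.10% and 10.9% of all genes, with a median of -0.10. Cbx1, a heterochromatin protein, rose by 1.43 ± 0.15 and Max by 1.18 ± 0.14, from 7.54 to 8.73. E2f6, the repressive E2F of this complex, fell by 2.26 ± 0.11, from 10.02 to 7.75. Tfdp2 differed by -0.10. In gPS against ESC 0 of 11 were called by limma, with 6 at an unadjusted p under 0.05, beside 4.49% of all genes called. Mga was lower than in ESC in NSC (-1.93) and MEF (-2.37), as was L3mbtl2, another PRC1.6 subunit (-1.78 and -2.28). Pcgf6 was lower in the same cells on its probe set of highest mean.

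PRC2, which methylates the lysine that Cbx2 and Cbx7 bind, showed an exchange of its own catalytic paralogs. Ezh2 rose by 1.95 ± 0.09 between GSC and gPS, from 8.85 to 10.80, and Ezh1 fell by 1.77 ± 0.17, from 9.24 to 7.47. Phf1 fell by 1.26, and the other 8 of 11 PRC2 genes were not called, among them Mtf2 at -0.03, so that 3 of 11 were called beside 20.0% of all genes. In gPS against ESC 0 of 11 were called by limma, with 7 at an unadjusted p under 0.05, beside 4.49% of all genes called, and Suz12 differed by 0.00 ± 0.15. In NSC 5 and in MEF 6 were lower than in ESC, beside 10.0% and 10.9% of all genes, led by Jarid2 (-2.92 and -4.84), Mtf2 (-2.87 and -3.07) and Eed (-2.53 and -2.09). Of 6 genes of H2A deubiquitination, which removes the PRC1 mark, 33.3% were called between GSC and gPS, beside 20.0% of all genes. Asxl2 rose by 1.25 and Bap1 fell by 1.02 on the log2 scale.

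Cdkn2a, the classic target of Bmi1, was 1 of 4 cell cycle inhibitor genes of the Ink4 locus and related targets. It read 6.75 ± 0.11 (SD, n = 3) in GSC and 5.39 ± 0.29 (SD, n = 5) in gPS, a fall of 1.35 ± 0.19 on the log2 scale. Against ESC, gPS differed by 0.01 ± 0.19, not called, while Cdkn2b was higher by 1.11 and Cdkn1a by 1.46. Cdkn2a was higher in NSC (7.25 ± 0.36) and ESC_like (7.82 ± 0.46, SD, n = 3 each) than in ESC, with Bmi1 highest in the first and near the ESC level in the second. MEF were higher in Cdkn2a too, at 6.73 ± 0.09 (SD, n = 3), against 5.38 in ESC. The part of Bmi1 in these Cdkn2a levels was not tested.

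Germ cell genes described as silenced by PRC1.6 fell throughout in gPS. All 11 measured of 12 were lower than in GSC, beside 10.9% of all genes, with a median of -5.93, and the list was chosen with this result known, so its direction is no independent evidence. Slc25a31, a germ cell ADP/ATP carrier, fell by 8.10, Dazl, an RNA-binding protein, by 7.20, and Taf7l, a germ cell TAF, by 7.20 on the log2 scale. Their gPS levels of 3.65, 5.01 and 4.24 lay below or near the median of all values, 4.98. These sizes are thus limited by the floor of the array and are best read as at least so large. The same holds for Scml2 and Cbx8, at 4.48 and 5.13 in gPS. Against ESC, Ddx4 was higher in gPS by 1.40 (7.23 against 5.83), and Sycp3, of the synaptonemal complex, was lower by 2.40 (6.93 against 9.33), as was Stag3, a meiotic cohesin, by 1.54. The remaining 8 were not called.

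**Figure D5:**
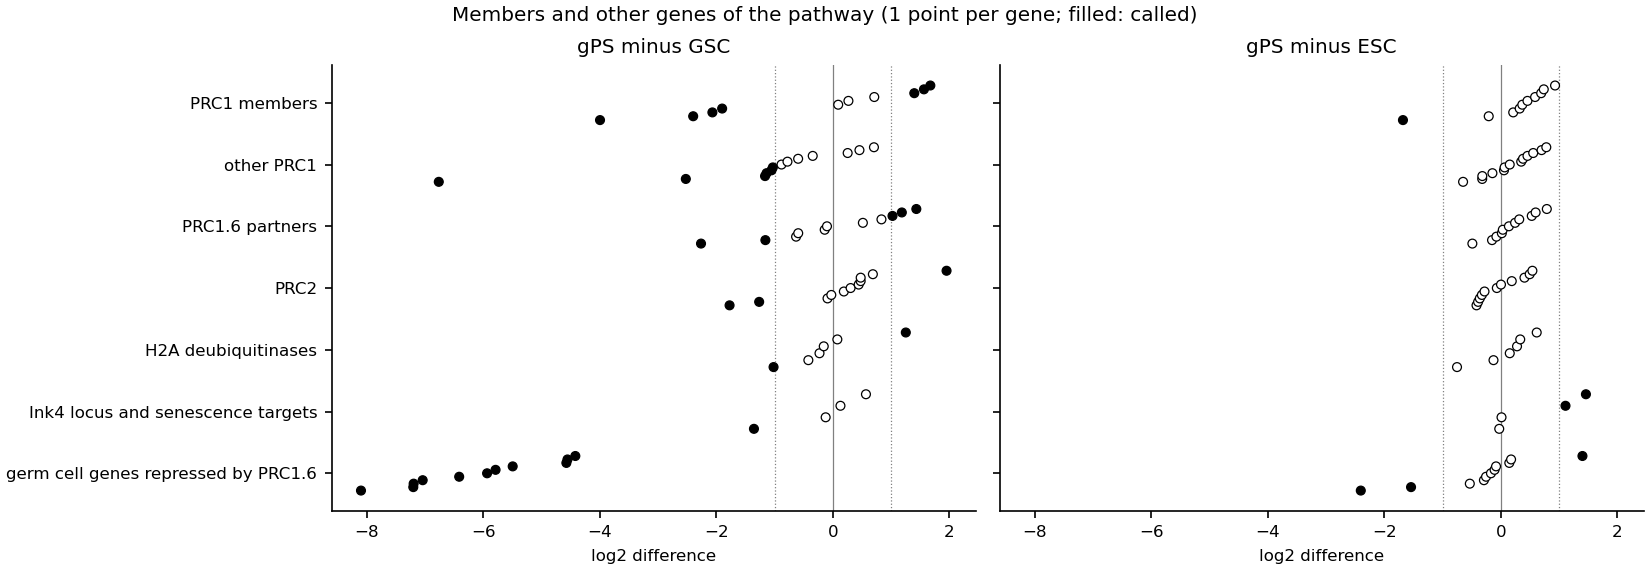
Log2 differences (horizontal axis) of the 10 members and of 6 lists of related genes in gPS minus GSC and gPS minus ESC, 1 point per gene, filled where called. The germ cell genes lie between -8.10 and -4.42 in the first, and the only filled member in the second is Bmi1 at -1.68.

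The windows before the starts of these germ cell genes held CACGTG in 7 of 12 genes, against 6.86% of all genes with a window, each counted once over all its windows. The 12 genes were chosen as described targets of PRC1.6, which contains Mga and Max, so this count is no independent evidence. Their windows held 12 to 31 CpG, against a median of 6 over all windows, and CACGTG itself contains a CpG. TTCCCGC, a motif of E2F6 type searched on both strands, was in 3 of the 12, in 1 of 9 members and in 4.38% of all genes, and no window held both in overlap. The 7 stretches are shown with the E-box in capitals, 28 bases each on the gene's strand, since the E-box is the motif of Mga and Max.
Ddx4, chr13:112652323-112652350, minus: gcgtccgcccgCACGTGcagccgtttaa
Mael, chr1:166238951-166238978, minus: accaggcctacCACGTGacaatccccgc
Taf7l, chrX:134476523-134476550, minus: ccctcttatacCACGTGacagaactcgc
Slc25a31, chr3:40708767-40708794, plus: gcaactggaaaCACGTGttatggtcaca
Stk31, chr6:49395473-49395500, plus: ggccggccaccCACGTGaccagggctgc
Sycp3, chr10:88459533-88459560, plus: cgggcatggagCACGTGctaggaggcgg
Stag3, chr5:138280328-138280355, plus: gcgctggagccCACGTGacaggactgca
Sycp3 held 2 E-boxes in its window, of which 1 is shown. Genes with the E-box were found among both directions against ESC: Ddx4 was higher in gPS, and Sycp3 and Stag3 were lower.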

How the data were processed

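RNA of 20 mouse cell samples in 6 groups was labelled and hybridised to Affymetrix arrays. The authors deposited log2 intensities per probe set, which the submitters' processing notes give as RMA values. RMA adjusts for background, brings the arrays to 1 distribution and combines the probes of a set, which narrows differences of dim probe sets. Its version, and whether all 20 arrays were processed together, are not given in the sources used here, and the ESC_like samples carry later sample numbers. Values were used as deposited.

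Of 45101 probe sets, 64 controls were left out. A probe table gave 1 symbol for 34945, several for 932 and none for 9160, and symbols were updated by gene identifier for 34741. A gene was given by its probe set of highest mean, which left 18193 genes (9010 had more than 1 probe set). The fit took 1 mean for each group over all samples, with limma 3.58.1 in R 4.3.3 (lmFit, eBayes, no covariate). Calls needed a difference of at least 2-fold and an adjusted p (Benjamini-Hochberg, across the genes tested) under 0.05, and neighbours in an order of levels were taken as different at an adjusted p under 0.05. SE and 95% intervals are limma's, and the number of arrays limits the precision. The fit was tested on simulated data. Tables and figures were made in Python 3.11.15.

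The members, the lists of related genes and the pairs of paralogs were chosen with earlier results of these data known. Named genes were the members, from each list and comparison up to 3 called genes with the largest differences and the uncalled gene nearest 0, the 3 genes most like each member that spanned at least 2 log2 units, and the cell type markers. A few genes of the lists were not analysed here. Sequences are RefSeq's, of build GRCm38.p6.

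Same-numbered samples of different groups did not deviate together: over 45 pairs the correlation of their deviations from the group means had a median of 0.0203, and 7 were over 0.1. The alternatives tried were another choice or mean of probe sets, dim genes left out, centring or quantile normalization of the arrays, weights per array, a robust fit with a variance trend, a stricter p or no minimum fold, only the groups compared, a replicate block, and leaving out samples.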

Additional observations from a re-analysis of the deposited data

Results flagged for a closer look

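Bmi1 in gPS replicate 1 was 5.04, against 6.21 to 6.45 in the other 4 gPS samples, which put it apart from its group by Dixon's criterion at 95%. That holds for the probe set of highest mean. On 1448733_at replicate 1 was at 4.37 and replicate 5 was lower, at 4.20. The 10 members were examined this way in gPS, the only group of more than 3 samples, and chance sets apart about 1 in 20 groups. Without this sample Bmi1 differed by -3.75 between gPS and GSC and by -1.43 between gPS and ESC, and both remained called. The same sample had the lowest mean correlation with its group, 0.979, and its part in the Bmi1 level was not tested.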

How the results depend on the processing

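Over the alternatives, 1170 of 1190 values of single members in the 6 comparisons kept their side of the threshold, 5 of these, none called, with the sign turned (among them Pcgf5 in gPS minus ESC at -0.07 with the replicate block), 4 were no longer called, 16 became called and 0 called values reversed. With no minimum fold the members called were 5 in gPS minus ESC, 8 in GSC minus ESC and 2 in ESC_like minus ESC. Members called in gPS minus ESC were 2 without the probe sets whose suffix marks shared sequence, and 2 with gPS replicates 1 and 2 left out together. Leaving out 1 replicate gave 7 members called in gPS minus GSC, 1 to 2 in gPS minus ESC, 5 to 6 in GSC minus ESC, 1 in ESC_like minus ESC, 7 in NSC minus ESC and 6 in MEF minus ESC. By the mean of the probe sets of a gene, the change from GSC to gPS was -4.86 for Bmi1 over Pcgf2, -3.85 for Bmi1 over Pcgf6, -2.29 for Cbx2 over Cbx7 and -0.06 for Ring1 over Rnf2, the last reversed, and with shared-suffix probe sets left out it was 3.02 for Phc1 over Phc2. Leaving out 1 replicate, these changes ranged from -5.73 to -5.33, from -4.85 to -4.51, from -3.63 to -3.30, from -0.08 to 0.44 and from 3.38 to 3.77. By the mean of probe sets the 4 calls lost were Cbx7 in gPS minus GSC (0.80) and GSC minus ESC (-0.59), Pcgf5 in NSC minus ESC (-0.54) and Pcgf2 in MEF minus ESC (-0.77). Dim probe sets enter that mean. Apart from the GSC minus ESC call of Phc1, gained at -1.02 when arrays were centred, quantile normalization and centring changed no call of a member. The deposited values were already normalized by RMA, with array medians from 4.95 to 5.04, so these settings could change little. With a replicate block, the counts were 7, 1, 5, 1, 7 and 6 and no call changed, and Bmi1 differed by -4.19 in gPS minus GSC. Whether the numbers pair the samples was not settled by the check of same-numbered samples. Signal over background limits 3 of the 24 probe sets, whose highest group mean was under 5.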

Other observations

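Some genes related to PRC1 that were high in GSC lay above their ESC level in ESC_like cells, and others did not. Of 13 other PRC1 genes, 6 were called higher than ESC in GSC and 3 in ESC_like, beside 13.1% and 5.11% of all genes. Cbx8, at 4.86 in ESC_like, 7.65 in GSC and 4.75 in ESC, was not among these 3, nor were Bcorl1 and Auts2. Scml2 was 6.58 in ESC_like, against 11.24 in GSC and 4.13 in ESC, and differed from ESC by 2.45 ± 0.19 (SE, limma adjusted p 4.26e-09). Yaf2 was 8.38, against 8.55 in GSC and 6.68 in ESC (difference from ESC 1.69 ± 0.18), and E2f6 was 8.31, against 10.02 in GSC and 7.16 in ESC (1.16 ± 0.13). Scmh1, a relative of Scml2, was higher than in ESC by 1.11 and Mga was lower by 1.00 on the log2 scale, at 8.40 against 9.40. Dazl was 7.60 in ESC_like, against 5.12 in ESC and 12.21 in GSC, whereas Sycp3 was 4.92, against 9.33 in ESC. Cdkn2a, Cdkn2b and Cdkn1a were higher in ESC_like than in ESC by 2.44, 2.67 and 2.61. The log2 sum of the fibroblast markers was 12.03 to 12.37 in ESC_like and 7.62 to 7.96 in ESC. In MEF E2f6, Yaf2, Cdkn2b and Cdkn1a were higher than in ESC, by 2.08, 2.74, 3.62 and 3.90. Cdkn2a was also called higher in MEF, at 6.73 against 5.38 in ESC. The part of fibroblast RNA in these differences was not tested. Dazl was below the median of all values in MEF, at 3.93.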
